A study of Rattus norvegicus with 16 samples.

Results

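Of 392 miRNA hairpins counted in small RNA libraries of the rat, 53 were counted on the strand opposite a known hairpin, and these antisense hairpins are described here. They were taken as every hairpin whose identifier carries the suffix "-as", and each was set against the sense hairpin of the same name. Together they held 494.8 of 15196294 reads, or 32.6 reads per 1000000 reads of the libraries (RPM). At least 1 read in a library was found for 51 of them, and 26 had this support in more than 1 library. The 26 held 92.3% of the antisense reads.

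The libraries were made from adult male rats of the inbred strains BN-Lx and SHR (the spontaneously hypertensive rat), with no treatment named, from whole kidney, testis, heart, spleen, liver and brain. Each tissue had 1 library per strain, 12 in all, and 4 further livers (2 per strain) brought the livers to 3 per strain. By the study's account the livers came from 3 rats of each strain. All 6 tissues of a strain were taken from the same rat, so they are not independent animals, and the strains stand in as the replicates of a tissue. Whole tissues hold many cell types, so fewer cells of a type and less RNA per cell cannot be told apart. A library held between 26880 and 1064894 reads in the 6 tissues, at most 29131 of them in testis and at least 403453 elsewhere, and between 1167607 and 3229461 reads in the further livers. Of 20 marker miRNAs chosen for the 6 tissues, 16 were highest in the labelled tissue in both strains. The others were mir-192, mir-194 and mir-204, which were chosen for kidney, and mir-741 of testis, which matched no hairpin identifier. mir-192 was highest in liver and mir-204 in testis in both strains, and mir-194 in liver in BN-Lx and in kidney in SHR. The kidney label thus rests on mir-200b alone among the markers chosen for it. Every antisense count is small, and the intervals and limits given below cover counting error only, since copies made by PCR were not marked.

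A miRNA is cut from a hairpin-shaped transcript, first by Drosha in the nucleus and then by Dicer, which leaves a short duplex of the 5p and 3p arms, of which 1 strand is usually kept by an Argonaute protein. The bases after the 5′ end, the seed (bases 2 to 8), pair with target mRNAs. Because the arms of a hairpin are nearly complementary to each other, the transcript of the opposite strand can fold into a similar hairpin and give a duplex of its own, whose arms have other seeds than the sense miRNAs. The study's pipeline annotated opposite-strand reads where they looked like Dicer products on a stable hairpin, so the positions and lengths below are partly what the annotation asked for.

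RefSeq (assembly GRCr8) holds a hairpin for 40 of the 53, matched through the study's locus names and read sequences, and the position numbers on these hairpins are those of the files. The reads that carry the results are shown for the antisense hairpins with most reads, each followed by the sense mature miRNA that lies opposite it. Capitals mark the seed.
mir-203-as, 3p: uUGAACUGuuaagaaccacugga
opposite miR-203a-5p: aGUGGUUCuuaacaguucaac
mir-31-as, 3p: cUAUGCCAgcaucuugccu
opposite miR-31a-5p: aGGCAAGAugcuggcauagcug
mir-130a-as, 3p: uAGCACAAugugaaaagagcuc
opposite miR-130a-5p: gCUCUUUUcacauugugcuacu
mir-219-2-as, 5p: aGAUGUCCagccacaauucu
opposite miR-219a-2-3p: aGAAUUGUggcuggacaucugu
mir-219-1-as: gGACGUCCagacgcaacucu
opposite miR-219a-1-3p: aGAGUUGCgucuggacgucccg
mir-24-1-as, 3p: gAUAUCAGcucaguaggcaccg
opposite miR-24-1-5p: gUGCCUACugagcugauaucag
mir-337-as, 3p: aACUCCUGcaugacgccguuccc
opposite miR-337-5p: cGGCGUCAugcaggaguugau
mir-338-as, 5p: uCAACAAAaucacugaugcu
opposite miR-338-3p: uCCAGCAUcagugauuuuguuga

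The read of mir-203-as lies at chr6:137020715-137020737 on the minus strand, outside any other gene of the RefSeq table, and RefSeq names it miR-203b-3p. That of mir-31-as (miR-31b) lies at chr5:108714909-108714927 on the plus strand, and that of mir-130a-as (miR-3590-3p) at chr3:90229282-90229303 on the plus strand. The read of mir-219-2-as (miR-219b) lies at chr3:33516519-33516538 on the plus strand, within the span and on the strand of Cercam. The read of mir-219-1-as was taken from the study's list of reads, since RefSeq has no hairpin for it, and it is the exact complement of chr20:4831641-4831660 on the sense hairpin, read on the minus strand. The read of mir-24-1-as (miR-3074) lies at chr17:1818712-1818733 on the plus strand, on the strand of Fancc, the gene of a Fanconi anaemia protein, and opposite Aopep. The read of mir-337-as (miR-3544) lies at chr6:134321165-134321187 on the minus strand, and that of mir-338-as (miR-3065-5p) at chr10:105796345-105796364 on the plus strand, opposite Aatk, whose transcript carries the sense hairpin mir-338. Of the 40 hairpins with a location, 6 overlapped a gene transcribed on the antisense hairpin's own strand, 22 overlapped genes on the opposite strand only, 9 overlapped no gene, and for 3 the table gives no strand. The table gives gene spans only, so exons and introns were not told apart.

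The most frequent read of each arm was compared with the sense miRNAs. Of 51 arms, 49 shared at least 15 bases with a mature miRNA on the other strand, with a median of 20 bases. In 41 of the 49 the antisense read began opposite the 3′ end of the sense miRNA or up to 3 bases inside it, and in 14 of these it began exactly 2 bases inside. In other words, most antisense reads sat face to face with a sense miRNA rather than in a loop or a flank. Against every other hairpin of RefSeq, 38 of the 51 differed by 3 or more bases at the best position, and the median was 6. The read of mir-203-as differed by 5 bases from its closest match, which was its own sense hairpin, and that of mir-31-as by 3. Exact matches elsewhere were found for 7 arms, those of mir-299-as and of copies within a family among them, and the files divide such reads between the hairpins.

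RefSeq lists many of these antisense reads as mature miRNAs under names of their own, and those entries were left out of the comparison of seeds. Of the 51 arms, 6 shared bases 2 to 8 with another mature miRNA of RefSeq. The 5p read of mir-382-as, a hairpin of the imprinted cluster on chromosome 6, carries the seed of the let-7 family, which represses growth and cell cycle genes, although the bases after it differ. The 5p read of mir-126-as, opposite the endothelial miR-126a-3p, has the seed of miR-126a-5p from the sense strand, and that of mir-338-as has the seed of miR-7a-1-3p. The others are arms of let-7a-2-as, let-7f-1-as and mir-9-1-as. That of mir-9-1-as matches only miR-9b-3p, the RefSeq name of the same antisense sequence on mir-9-3-as. Those of mir-382-as and mir-126-as are shown as examples of an antisense read that begins like a known miRNA.
mir-382-as, 5p: aGAGGUAGcauuugguacug
mir-126-as, 5p: cAUUAUUAcucacgguacgaguu
miR-126a-5p: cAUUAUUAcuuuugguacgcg
Each of these antisense sequences rests on 1 read in 1 library. The other read of mir-382-as began elsewhere on the hairpin, and the read shown lies opposite no mature sense miRNA of RefSeq.

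The antisense strand gave a very small part of each pair. The 53 sense hairpins held 7229162 reads, and the antisense strand made up 0.00684% of all reads of the pairs (exact 95% interval 0.00626 to 0.00748%). This pooled share is weighted to mir-122, which alone held 4562880 of the sense reads, with 2 antisense reads. Per pair the median share was 0.0405%, and 39 of 53 lay under 0.1%. No antisense hairpin had more reads than its sense hairpin over the 16 libraries. The highest shares were 4.11% for mir-219-1-as (8 reads, exact interval 1.80 to 7.96%), 1.76% for mir-203-as (183 reads, 1.52 to 2.03%), 1.56% for mir-483-as (1 read against 63) and 1.24% for mir-299-as (8.5 reads, 0.505 to 2.28%). Apart from mir-203-as these shares depended on which reads were counted. Without entries of a fractional count, mir-219-1-as had 10.8% and mir-299-as 0.444%, and the lone read of mir-483-as was shorter than 17 nt. Divided reads whose parts add up to a whole number stay in these values, so they are not shares free of divided reads. At the other end, mir-122-as had 2 reads against 4562880 of mir-122, the leading miRNA of hepatocytes, and both of these reads came from spleen and none from the 6 livers.

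**Figure D1:**
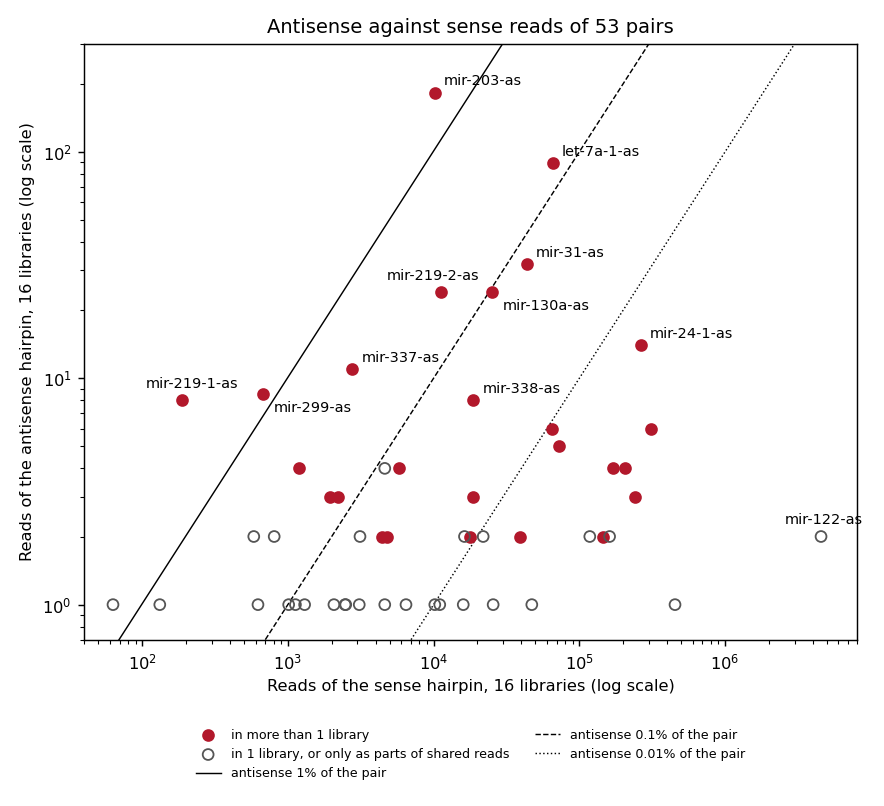
Reads of each antisense hairpin (vertical, log scale) against reads of its sense hairpin (horizontal, log scale), summed over 16 libraries, 1 point per pair. Filled points were found in more than 1 library, open points in 1 library or only as parts of shared reads, and the lines mark shares of 1, 0.1 and 0.01% of the pair. Only 4 pairs lie above the 1% line, and mir-122-as lies at the far right with 2 reads.

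Reads were concentrated in few hairpins. mir-203-as alone held 37.0% of the antisense reads, and the 10 with most reads held 81.2%. At most 2 reads were found for 31 of the 53, and 7 had at least 10. Of the 51 with a full read in some library, 25 were seen in exactly 1 library. The remaining pair, mir-9-1-as and mir-9-3-as, had only parts of shared reads. Support in both strains of the same tissue was found for 11 hairpins, and 22 had reads in at least 2 tissues. When 3 reads in a library were required, 13 hairpins remained, 7 of them in more than 1 library, and at 10 reads only mir-203-as and let-7a-1-as did. The further livers gave 16 of the 51, although they were the deepest libraries, and 12 of the 16 were also seen in the 6 tissues.

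**Figure D2:**
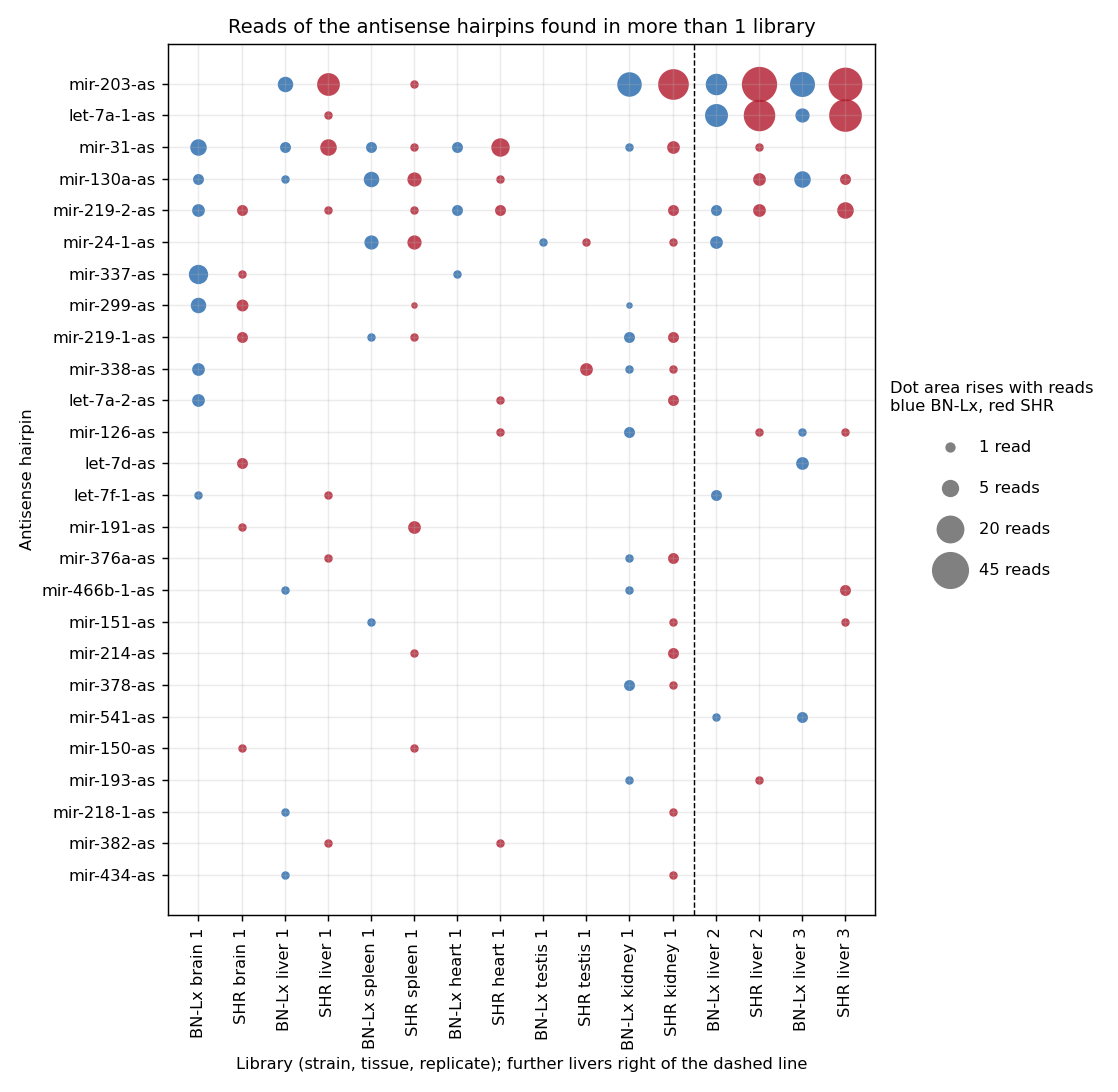
Reads of the 26 antisense hairpins found in more than 1 library (rows) in each of 16 libraries (columns: strain, tissue, replicate). The dot area rises with the number of reads, blue is BN-Lx and red is SHR, and the dashed line sets off the further livers. mir-203-as stands in all livers and kidneys, let-7a-1-as almost only in the further livers, and most other rows hold 1 to 3 small dots.

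mir-203-as was the antisense hairpin with most reads and the one with a clear tissue pattern. Its sense miRNA, miR-203, is best known from stratified epithelium, where it restrains p63 and the proliferation of progenitor cells. The kidney of BN-Lx gave 17 reads of the antisense hairpin and that of SHR 31, or 31.2 and 51.8 RPM. In liver the counts were 5, 12 and 18 for the BN-Lx and 14, 45 and 40 for the SHR replicates, between 8.76 and 27.9 RPM. Spleen had 1 read, in SHR, and none was found in brain, heart or testis. Kidney and liver libraries thus all lay above those of brain, spleen and heart, and both kidneys above all livers. The lower kidney and the highest liver were close, at 31.2 RPM on 17 reads and 27.9 RPM on 14, and their order was not tested. Over the 4 libraries of brain and heart a count of 0 in 2959282 reads allows up to 1.01 RPM. Against this limit, the pooled level of mir-203-as was 41.5-fold higher in kidney and 13.5-fold higher in liver, further livers included. These folds leave out the counting error of kidney and liver and the spread between libraries. The testis libraries held 56011 reads, in which a count of 0 allows up to 53.6 RPM, more than the pooled 42.0 RPM of kidney, so no difference from testis was detectable at this depth.

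In edgeR, which tests all hairpins together with the strains as replicates, mir-203-as was the only antisense hairpin that passed the filter on low counts in the 12 libraries, a filter it passed through liver and kidney. In kidney against the mean of the other 5 tissues it was higher, with a log2 fold change of 5.51 (SE 0.97) and an adjusted p of 0.00178 in edgeR's quasi-likelihood test. In liver it was higher as well, with a log2 fold change of 4.98 (SE 1.08) and an adjusted p of 0.00589. The sizes of these fold changes depend on the prior count that edgeR adds where tissues are at 0, and the kidney and liver comparisons share all libraries. The p-values rest on the same reads as the pattern described above, through which the hairpin entered the test. They are therefore no separate support for it. Of 296 hairpins tested, 31.8% were called in kidney and 35.1% in liver in either direction, and 18.2% and 16.6% were called higher. Without the library of SHR liver 1 the liver call was lost, at an adjusted p of 0.117, and DESeq2 did not call it in kidney (adjusted p of 0.14) and gave no adjusted p in liver (unadjusted p of 0.0794).

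The sense hairpin mir-203 was also highest in kidney and next in liver. It had 2553 RPM in the kidney of BN-Lx and 1527 in that of SHR. The livers of the same rats had 844 and 547, and the further livers between 675 and 818. Its log2 fold change was 3.35 (SE 0.30, adjusted p = 3.8e-06 in edgeR) in kidney and 2.36 (SE 0.31, adjusted p = 9.8e-05) in liver. In contrast to the antisense strand, the sense strand was read in every library, from 52.3 RPM in SHR heart to 521 in BN-Lx testis among the tissues where the antisense strand had none. In brain and heart the sense strand had 239 reads, against which 0 antisense reads allow a share of up to 1.26%. At the antisense share of kidney, liver and spleen, 239 sense reads correspond to 4.40 antisense reads, so the depth allows no firm statement on absence from these tissues. In testis the sense strand had 29 reads.

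Within a library, where depth cancels, the antisense share of the mir-203 pair lay between 1.21% and 4.86% in the 8 libraries of kidney and liver. It was 1.21% in BN-Lx kidney (exact interval 0.706 to 1.93%) and 3.28% in SHR kidney (2.24 to 4.63%). In the first livers it was 1.25% in BN-Lx (0.407 to 2.89%) and 4.86% in SHR (2.68 to 8.02%), and in the further livers it was 1.28 and 1.85% for BN-Lx, against 1.89 and 1.50% for SHR. The counting intervals of the strains did not overlap in kidney, overlapped slightly in the first livers, and the shares of the strains were mixed in the further livers. Each of these values is from a lone library, and the difference between strains was not tested. SHR liver 1 was amplified with more PCR cycles than most libraries, as were the testes, and the part this plays was not tested.

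**Figure D3:**
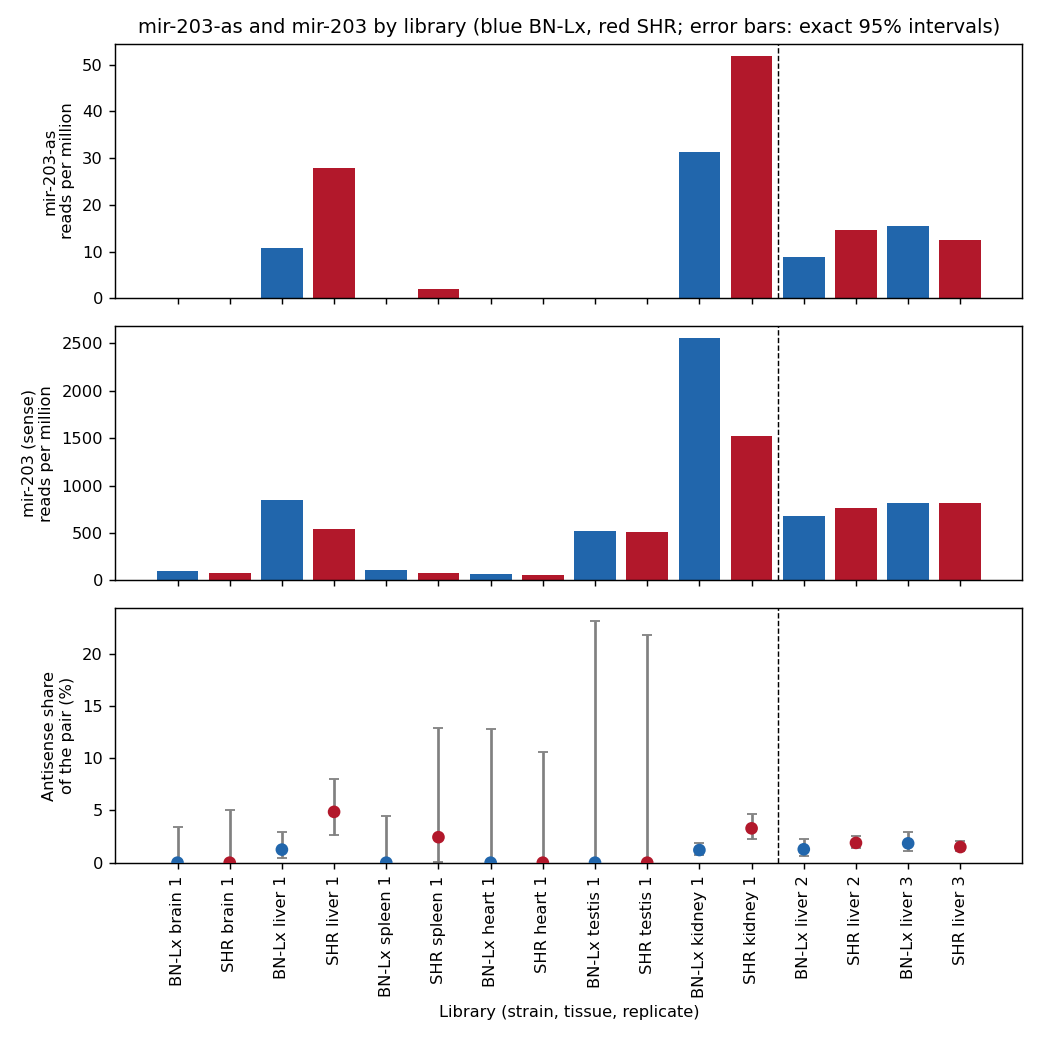
RPM of mir-203-as (top) and of the sense hairpin mir-203 (middle), and the antisense share of the pair in percent (bottom), in each of 16 libraries, blue for BN-Lx and red for SHR. Error bars are exact 95% intervals for counting error, and the dashed line sets off the further livers. Antisense reads are seen in kidney and liver and 1 in SHR spleen, whereas the sense hairpin is read in all libraries.

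The reads of mir-203-as were uniform at their 5′ end. Position 69 of the hairpin began 165 of the 183 reads (90.2%), and 97.3% lay on that arm. The commonest length was 23 nt (79 reads), and all were at least 18 nt long. On the other arm, opposite the main sense miRNA miR-203a-3p, 5 reads were found. Within the arm, 92.7% of the antisense reads began at the commonest position, against 88.0% of the reads on the main sense arm.

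Hairpins whose level over the 12 libraries was most like that of mir-203-as were mir-10a (Spearman's rho 0.86), mir-802 (0.83) and mir-455 (0.83), and its own sense hairpin had 0.73. These values describe 12 libraries of which 5 held reads of mir-203-as, over 274 candidate hairpins with at least 100 reads.

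let-7a-1-as came next, with 89.3 reads, and differed from the others in length. All its reads were 15 to 18 nt long, and 80.3 of them were under 17 nt. Only the files of the further livers hold reads under 17 nt, and 88.3 of its reads were found there. BN-Lx livers 2 and 3 held 14.3 and 4 and SHR livers 2 and 3 held 33.3 and 36.7, and the only other read was 1 of 17 nt in SHR liver 1. The sense hairpin let-7a-1 had 65497 reads, with between 7176 and 14404 in each further liver. Its read in SHR liver 1 was the only one in the 6 tissues, so no likeness to other hairpins can be read there.

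Most of these reads cannot be told apart from let-7f. The reverse complement of the let-7a-1 hairpin shares 16 bases with the 3′ part of the miRNA let-7f-5p, shown here with the shared bases in capitals.
let-7a-1-as, positions 61 to 78: AGUAGAUUGUAUAGUUau
let-7f-5p: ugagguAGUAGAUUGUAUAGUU
Reads that ended at or before position 76 lie within the shared bases. They made up 64.3 of the 89.3 reads in 11 entries of start, end and library, and in all 11 the files give the same number to let-7f-1 and to let-7f-2 at the matching positions, as the division of a read between 3 places would. The other 25 reads ended at position 77 or 78, beyond the shared bases, and had no exact match in a sense hairpin of RefSeq. Of these, 16 were under 17 nt, and 6, 10, 2 and 6 came from BN-Lx liver 2, SHR liver 2, BN-Lx liver 3 and SHR liver 3 and 1 from SHR liver 1. The 25 reads began at position 61 or 62, as the shared reads did, and ran past the shared bases only by a or au. Their place on the antisense strand rests on these end bases and was not tested.

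The short antisense reads were nearly all of let-7a-1-as. In the further livers, 33.4% of antisense reads were under 17 nt with it and 1.86% without it, when 3 short reads were left. Of the reads of the sense hairpins of the same names, 0.237% were under 17 nt. Among reads of at least 17 nt the median length was 22 nt on both strands, but the antisense reads were spread more widely. Lengths of 21 to 23 nt, the usual range of miRNAs, were found for 64.8% of antisense and 90.1% of sense reads, and lengths of 17 to 19 nt for 19.4% and 3.91%. Without mir-203-as the antisense share at 21 to 23 nt was 52.7%. The sense values are pooled over reads, so mir-122, which had the most, weighs most in them.

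**Figure D4:**
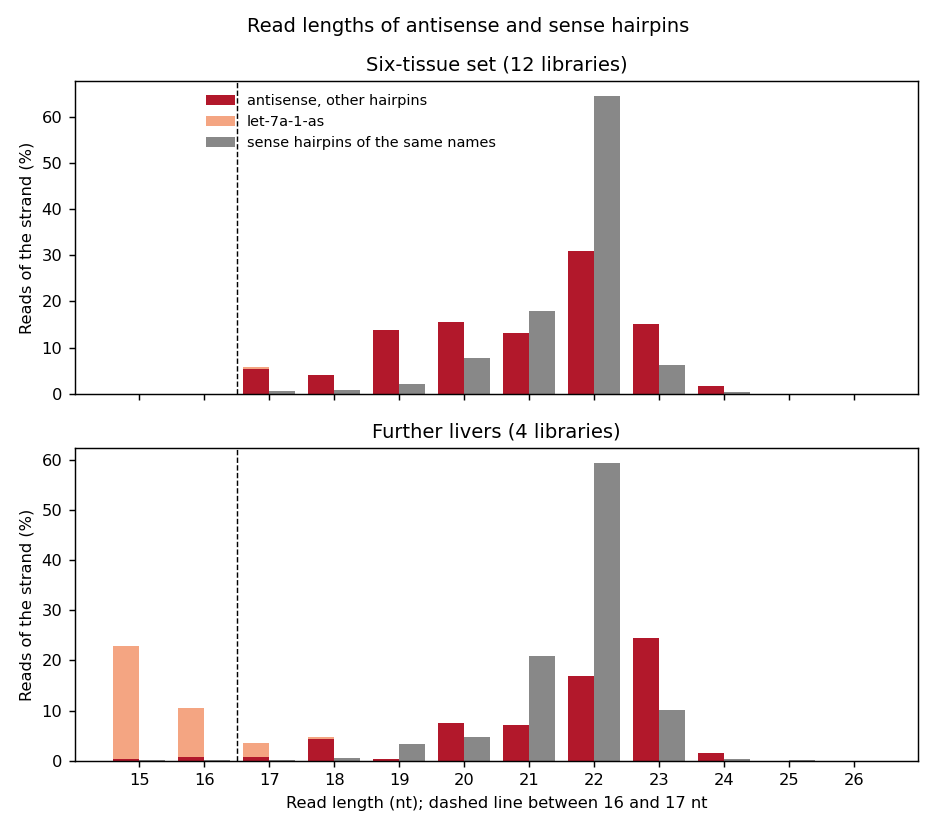
Read lengths in nt (horizontal) as percent of the reads of a strand (vertical), in the 12 libraries of the 6 tissues (top) and the 4 further livers (bottom). Red bars are the antisense hairpins with let-7a-1-as in light red, and grey bars are the sense hairpins of the same names. Reads left of the dashed line, under 17 nt, are present in the further livers only, where let-7a-1-as makes up 80.3 of 83.3 of them, and the antisense bars are spread more widely than the grey ones.

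mir-31-as had 32 reads of which 24 were 19 nt long, shorter than its partner miR-31a-5p of 22 nt. It was seen in 10 libraries, with 6 reads in BN-Lx brain and 1 in SHR liver 2. For BN-Lx and SHR in turn, liver 1 had 2 and 6 reads, spleen 2 and 1, heart 2 and 8 and kidney 1 and 3. Both strains thus had reads in liver, spleen, heart and kidney, and testis had none. The sense hairpin mir-31, an epithelial miRNA often altered in tumours, had its highest level in liver. Its log2 fold change there was 4.22 (SE 0.29, adjusted p = 2e-07 in edgeR) against the other 5 tissues. The largest antisense count was 8 reads in SHR heart, against 6 in SHR liver 1. These counts are small and not scaled to depth, so they give no order of heart and liver. In the further livers mir-31-as was nearly missing. The livers of the 6-tissue rats had 8 reads, or 8.25 RPM, and the 4 further livers 1 read, or 0.113 RPM, while the sense hairpin had 8436 and 3300 RPM. The sets of livers differed in depth and in the shortest reads kept, and the part of these was not tested. Hairpins most like mir-31-as over the 12 libraries of the 6 tissues were mir-210 (Spearman's rho 0.72), mir-22 (0.69) and mir-675 (0.66), with 0.30 for its own sense hairpin.

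The hairpins mir-219-1 and mir-219-2 give miR-219, a miRNA of oligodendrocytes that supports myelination, and the antisense strand was found outside the tissue of the sense strand. mir-219-2-as had 24 reads in 10 libraries, of which brain gave 3 in BN-Lx and 2 in SHR. The heart of each strain had 2, SHR liver 1, SHR spleen and SHR kidney had 1, 1 and 2, and the further livers had 2 in BN-Lx liver 2, 3 in SHR liver 2 and 6 in SHR liver 3. The sense hairpin mir-219-2, in contrast, had 11206 reads in brain and 75 in the other 14 libraries together, and its log2 fold change in brain was 7.80 (SE 0.35, adjusted p = 1.3e-09 in edgeR). The antisense share was thus 0.0446% in brain (exact interval 0.0145 to 0.104%) and 20.2% elsewhere (12.6 to 29.8%). The antisense level was 2.60 RPM in brain and 1.43 elsewhere, so the share differed mainly through the sense strand.

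mir-219-1-as had 8 reads, 2 in SHR brain, 1 in the spleen and 2 in the kidney of each strain. Its sense hairpin had 186.5 reads, 67.5 of them from the brain of BN-Lx and 61 from that of SHR. The antisense strand outnumbered the sense strand in 6 combinations of a pair and a library, and 3 of these were of mir-219-1-as in BN-Lx spleen and kidney and of mir-219-2-as in BN-Lx liver 2. The largest count among the 6 was 2 reads, and the intervals of the shares reached down to between 2.50 and 15.8%, so they describe sense hairpins that were nearly unread in the library.

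mir-130a-as had 24 reads and was most frequent in spleen (5 reads in the BN-Lx and 4 in the SHR library). BN-Lx brain had 2, BN-Lx liver 1 and SHR heart had 1 each, and the further livers had 3 and 2 in SHR livers 2 and 3 and 6 in BN-Lx liver 3. The sense hairpin mir-130a, known from blood-forming and endothelial cells, was spread over all tissues and had a share of antisense reads of 0.095% over the 16 libraries. It was 1 of the hairpins with reads on both antisense arms, 20 reads on the 3p arm and 4 on the 5p arm.

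mir-24-1-as had 14 reads, 4 in the spleen and 1 in the testis of each strain, 1 in SHR kidney and 3 in BN-Lx liver 2. Spleen thus had the most reads in both strains, while testis had 1 read in each of its shallow libraries. The sense hairpin mir-24-1 had 265804 reads and was highest in heart, with a log2 fold change of 1.80 (SE 0.19, adjusted p = 1.4e-05 in edgeR).

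mir-338-as had 8 reads, 3 in BN-Lx brain, 3 in SHR testis and 1 in the kidney of each strain. Its sense hairpin mir-338, a brain miRNA, had 9162 reads in the brain of BN-Lx and 6711 in that of SHR, of 18743 in all. Reads on both antisense arms were found, 6 on the 5p arm and 2 on the 3p arm.

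The antisense hairpins of the imprinted cluster on chromosome 6, where miRNAs are made from the maternal copy next to Dlk1 and Dio3, had more reads in brain than in any other tissue, through mir-337-as and mir-299-as. The 10 hairpins of the cluster had 36.5 antisense reads, 17.5 of them in the brain libraries, 8.5 in kidney, 5 in the first livers, 2 in heart, 0.5 in spleen, 0 in testis and 3 in the further livers. Their sense hairpins had 34600 of 36375 reads in the brain libraries, and 6 of the 10 were supported in more than 1 library. mir-337-as had 9 reads in the brain of BN-Lx, 1 in that of SHR and 1 in BN-Lx heart, and its sense hairpin was higher in brain, with a log2 fold change of 4.63 (SE 0.41, adjusted p = 4.7e-07 in edgeR). mir-299-as had 5 reads in the brain of BN-Lx and 2.5 in that of SHR, with 0.5 in SHR spleen and in BN-Lx kidney. Of its 8.5 reads at least 5.5 were shared, as seen from fractional counts, and its 5p read lies within miR-299a-5p of the sense strand without a mismatch.
mir-299-as, 5p: gGUUUACCgucccacauac
miR-299a-5p: uGGUUUACcgucccacauacau
Here the strand of a read is therefore uncertain. No other antisense hairpin of the cluster had a read in brain.

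Of the let-7 family, 5 hairpins had antisense reads. Besides let-7a-1-as, let-7a-2-as had 6 reads, let-7d-as 5, let-7f-1-as 4 and let-7e-as 2. Their reads lie opposite the 5p arm, which is the let-7 miRNA itself, and those of let-7a-2-as and let-7f-1-as have the seed of let-7 3p arms. Each was far rarer than its sense hairpin, with shares between 0.00236 and 0.0123%.

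Several miRNAs that mark a tissue had antisense reads outside it, although those of the mir-9 family lay mostly within it. The heart and muscle miRNAs mir-1, mir-133a and mir-208 had 3 antisense reads, 2 in brain and 1 in kidney and 0 in heart, where the sense hairpins had 35627 reads. The epithelial hairpins mir-141, mir-200a and mir-200c had 5, of which 2 in brain, 1 in kidney and 2 in the further livers. The antisense hairpins of the mir-9 family, which governs neural progenitors, had 6 reads, 5 of them in brain, and those of the mir-29 family 4, 3 of them in kidney. The 5 brain reads of the mir-9 family were all from BN-Lx, and some of them were divided reads. Counts of this size give no order of tissues.

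Over the hairpins with a read in the 6 tissues, the tissue of the highest mean level was the same on both strands for 12 of 49. Among the 10 with at least 5 reads there, it was the same for 3, mir-203, mir-337 and mir-299.

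By a 5-fold rule, a hairpin is specific to a tissue when its scaled reads there are at least 5 times those in each of the other tissues, in BN-Lx and in SHR. Reads are scaled by the mean count of a library, taken without its 3 highest hairpins. By this rule, 1 of the 53 antisense hairpins was specific to a tissue (1.89%). The rule was met by 117 of all 392 hairpins (29.8%) and by 19 of the 53 sense hairpins (35.8%). The antisense hairpin was mir-378-as in kidney, which had 2 reads in the BN-Lx and 1 in the SHR library. No antisense hairpin met the rule with at least 3 reads in each strain. With 1 strain alone, 22 hairpins met it in BN-Lx and 24 in SHR, which a lone read in a tissue can do.

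In brain, spleen, heart and testis against the other tissues edgeR called none of the 53, and again mir-203-as was the only one tested, with none at an unadjusted p under 0.05 and none called by DESeq2. Of the 296 hairpins tested, 70.6, 37.5, 33.1 and 32.4% were called in these tissues, and 41.9, 25.3, 16.2 and 14.2% were called higher. With every hairpin of at least 1 read tested, 49 antisense hairpins entered, and mir-203-as in liver and kidney was still the only call. An unadjusted p under 0.05 in edgeR was then found for 0 antisense hairpins in brain, 1 in liver, 2 in spleen, 0 in heart, 3 in testis and 1 in kidney. Of all 385 hairpins that entered, 221, 138, 141, 135, 133 and 126 had such a p in these tissues in turn. Of the sense hairpins 52 were tested, and 36 were called in brain (24 higher, 12 lower), 21 in liver, 19 in spleen, 21 in heart, 16 in testis and 22 in kidney.

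All antisense hairpins together made up 37.6 RPM in the brain of BN-Lx and 15.7 in that of SHR. The other tissues had 25.6 and 57.9 in liver 1, 20.3 and 35.2 in spleen, 12.4 and 23.8 in heart, 37.2 and 206 in testis and 59.7 and 98.7 in kidney. The value of SHR testis rests on 6 reads (exact Poisson interval 75.6 to 448). Between brain (2 libraries, mean 26.6) and the other 5 tissues (10 libraries, mean 57.7) the difference of the mean log2 levels was -0.76. It was within the spread of the libraries, with p = 0.455 in a two-sided exact permutation test, whose smallest possible p is 0.0152. The further livers held 25.1 to 29.8 RPM, and 15.4 to 26.6 for reads of at least 17 nt.

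SHR had the higher level in 5 of 6 tissues, brain being the exception, and this was not tested. In the comparison of 3 SHR with 3 BN-Lx livers edgeR called none of 196 hairpins (0%), and 5 of the 196 had an unadjusted p under 0.05. Of the antisense hairpins mir-203-as and let-7a-1-as entered the test, and neither had an unadjusted p under 0.05 or was called by DESeq2. mir-203-as had a log2 fold change of 0.58 (SE 0.48, adjusted p = 0.957 in edgeR) and let-7a-1-as of 0.82 (SE 1.02, adjusted p = 0.957). Over the 6 tissues with tissue as a term, 0% of 200 hairpins were called, with 14 at an unadjusted p under 0.05, and DESeq2 called 0 of the 200 as well. No antisense hairpin passed the filter there, and of the 49 that entered without it none had an unadjusted p under 0.05, against 10 of all 385 hairpins.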

How the data were processed

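Size-selected small RNA was sequenced on the SOLiD platform, and the authors mapped reads to hairpins with SHRiMP, kept perfect matches and divided a read with several places evenly between them. The deposited values are therefore estimated counts, given per hairpin, start and end. Opposite-strand hairpins carry the suffix "-as". Files of the 12 libraries of the 6 tissues begin at 17 nt, and those of the 4 further livers at shorter lengths.

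Counts were summed per hairpin and library, split at 17 nt, and rounded to whole numbers for testing. Main tests were edgeR 4.0.16 quasi-likelihood tests in R 4.3.3 (TMM scaling, filterByExpr, Benjamini-Hochberg adjustment over all hairpins tested, threshold 0.05), with strain as a term for tissues. Standard errors were obtained from the log2 fold change and the F statistic. DESeq2 1.42.0 was an alternative, and the edgeR step was tested on simulated data. Shares have exact binomial intervals (95%), and a count of 0 was given an upper limit of 3 reads. The study names 3 rats per strain for the livers but not which libraries were prepared together. The p-values measure the spread between these libraries.

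Livers of the same replicate number deviated together (correlations 0.57, 0.68 and 0.40 over 203 hairpins). The main test of SHR against BN-Lx liver did not pair them, and a form with the numbers as pairs was run as an alternative. The antisense hairpins and lists were chosen with earlier results of these data known. The 10 hairpins with most reads, those called and those with many short reads were described one by one. mir-382-as, mir-126-as, mir-378-as, mir-122-as, mir-483-as and the family groups were named after their values were seen. Sequences came from RefSeq (GRCr8) and the study's list of reads. Alternatives were other scalings, filters, read lengths and sets of libraries.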

Additional observations from a re-analysis of the deposited data

Results flagged for a closer look

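In the 6 livers, SHR liver 1 stood apart from the others for several antisense values. It held 57.9 RPM of antisense reads, against at most 29.8 in the other livers. All of these reads were at least 17 nt long, and for reads of that length the value was again 57.9 RPM against at most 26.6. mir-203-as had 27.9 RPM there, on 14 reads, and at most 15.4 in the others. mir-31-as had 11.97 RPM there, on 6 reads, and at most 4.27 in the others. This library was amplified with more PCR cycles than the other livers, and the part of this was not tested. In BN-Lx liver 2, mir-24-1-as had 2.19 RPM, on 3 reads, and 0 reads in the other 5 livers. Each was picked out because the gap to the next library was large against the range of the 6 values. Chance picks out about 1 in 20 such groups where the values are normally distributed and the libraries alike. That rate does not hold for mir-24-1-as, since any count found in a lone library gives the largest possible gap. It is doubtful for mir-31-as, which the further livers nearly lacked. The values of SHR liver 1 share reads, so they are not separate from each other.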

How the results depend on the processing

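Of the 51 antisense hairpins with a read and the 26 in more than 1 library, 13 and 7 were left when 3 reads in a library were asked for, 2 and 2 at 10 reads, and 16 and 6 in the 4 further livers alone. Short reads fell from 16.8% to 0.74% of the antisense reads without let-7a-1-as. The antisense share of the pairs, 0.00684%, was 0.0057% for reads of at least 17 nt, 0.0119% in the 6 tissues, 0.00756% as the median over libraries and 0.00432% without mir-203-as. A form without mir-122, which held most of the sense reads, was not run. The removal of let-7a-1-as and of mir-203-as, the 3-read form of the 5-fold rule and the removal of testis were chosen after seeing the data. The 5-fold rule gave 1 hairpin, 0 with at least 10 or at least 3 reads in each strain, 22 in BN-Lx alone, 24 in SHR alone and 2 at 3-fold.

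The liver call of mir-203-as was lost without SHR liver 1, so that leaving out a library gave 0 to 1 called hairpins in liver. With DESeq2, 0 were called in kidney. Over all alternatives its log2 fold change was 4.40 to 5.38 in liver (adjusted p in edgeR or DESeq2 3.7e-05 to 0.117) and 4.64 to 5.94 in kidney (0.00025 to 0.14). Scaling by total reads moved the median of all hairpins from -0.51 to -1.24 in liver and from 0.07 to 0.19 in kidney, and mir-203-as was higher under each scaling. No antisense hairpin was called in the other comparisons under any alternative run. The log2 difference of brain from other tissues lay between -1.39 and -0.13 when a library was left out.

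With the replicate block, which treats livers of the same number as paired, 0 antisense hairpins were called between SHR and BN-Lx liver, as without it. The counts were small, with at most 2 reads for 31 of 53 hairpins, and the part of depth in this was not tested.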
